A study of Homo sapiens with 24 samples.

Results

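Hyaluronan is a long, unbranched sugar polymer that cells extrude into the matrix around them, and the genes that make it, hold it, bind it and cut it were followed here across 4 culture conditions of human sensory neurons. The set held 10 genes, chosen by symbol and for their role: the hyaluronan receptors CD44 and HMMR, the hyaluronan synthases HAS1, HAS2 and HAS3, the matrix proteins VCAN, HAPLN1 and TNFAIP6, and HYAL2 and CEMIP, which take part in its breakdown. The choice was made with earlier results of these data known, so counts of these genes that pass a threshold do not test the set. All 10 were among the 36468 entries of the count table, each read from the first row with its symbol, and all 10 were among the 29377 entries with a total count of at least 10 that were tested.

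The libraries came from sensory neuron cultures grown from the human embryonic stem cell line H9 (labelled H9WAO9, wild type), by way of vagal neural crest spheroids, and poly(A) RNA was sequenced. The Vehicle group received 0.1% bovine serum albumin in phosphate-buffered saline for 5 days, the TGF-β group 2 ng/ml TGF-β, and the IL-4+IL-13 group 10 ng/ml IL-4 with 3 ng/ml IL-13, both cytokine groups also for 5 days and in the same solvent. The remaining group is labelled IL-6, and the labels give neither its dose nor its duration. Each group had 6 libraries, 1 in each of 6 batches, so every comparison was made within batches. All cultures derived from 1 stem cell line, so the batches are repeats of that line and not separate donors. The comparisons asked how these cytokines change neuronal gene expression, and those against Vehicle share the same 6 Vehicle libraries.

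In tissue, hyaluronan synthases sit in the plasma membrane and thread the growing chain out of the cell. CD44 anchors the chain at the cell surface, versican (VCAN) binds it through one end of its core protein, the link protein HAPLN1 clamps that binding, and TSG-6 (TNFAIP6) moves the heavy chains of inter-α-inhibitor onto it, which makes the matrix firmer. Hyaluronan and versican are best known in the nervous system from neural crest migration and from the coats around neurons, and CD44 is also carried by glia, fibroblasts and leukocytes.

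The library totals ran from 33342682 to 39817784 counts. Correlations were taken on deviations from group means, which cancel within a group, so a positive r within batches makes r between batches negative on average. Libraries of the same batch deviated together (median Pearson r 0.685 over 36 pairs, against -0.157 between batches), with exceptions. The Vehicle library of batch 2 correlated at 0.0081 with its own batch and at 0.530 with batch 4, the Vehicle library of batch 4 at 0.165 with its own and at 0.474 with batch 2, and the other 3 libraries of batch 4 were nearer to batch 3 than to the rest of their own. Whether the Vehicle libraries of batches 2 and 4 were exchanged was not tested, and an exchange would alter the within-batch differences from Vehicle of both batches. Results that rest on these libraries are therefore also given without the Vehicle libraries of batches 2 and 4, or over batches 3 to 6 only, both chosen after the data were seen. All 9 neuronal markers examined, among them TUBB3, STMN2, PRPH and POU4F1, had at least 10 counts in every library. The 8 mesenchymal or fibroblast markers, led by COL1A1 and COL1A2, also had at least 10 counts in every library and summed to between 2673 and 13444 normalized counts (CPM, scaled to the library total with TMM factors), next to 1188 to 5651 CPM for the neuronal markers, so the cultures carried both kinds of transcript. Of the 4 white blood cell markers AIF1 had 0 counts in every library and CD14 at most 15, while PTPRC had 159 to 1320 and CD68 136 to 1413. Of the pluripotency genes POU5F1 and NANOG had at most 5 counts and LIN28A 31 to 121. In bulk RNA of such a mixture, fewer cells of a type and less RNA per cell cannot be told apart.

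The stretches just upstream of 3 genes are shown because CD44 and TNFAIP6 were called together under IL-4+IL-13 and VCAN was not. Each is the 250 bases before the RefSeq start site, 5′ to 3′, on GRCh38.p14. CD44 lies at chr11:35138921-35139170 on the plus strand, TNFAIP6 at chr2:151357342-151357591 on the plus strand and VCAN at chr5:83471494-83471743 on the plus strand. Capitals mark a match to TGANTCA, the letters of an AP-1 site.
CD44: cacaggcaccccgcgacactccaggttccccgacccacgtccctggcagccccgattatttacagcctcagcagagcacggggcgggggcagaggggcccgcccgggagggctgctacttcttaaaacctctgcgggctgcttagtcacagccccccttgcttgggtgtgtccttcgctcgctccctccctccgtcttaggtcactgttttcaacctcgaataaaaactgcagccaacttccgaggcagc
TNFAIP6: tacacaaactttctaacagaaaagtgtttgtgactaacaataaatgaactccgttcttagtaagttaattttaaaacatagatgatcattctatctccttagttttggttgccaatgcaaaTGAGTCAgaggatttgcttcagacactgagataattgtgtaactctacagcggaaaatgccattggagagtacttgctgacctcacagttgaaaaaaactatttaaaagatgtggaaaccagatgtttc
VCAN: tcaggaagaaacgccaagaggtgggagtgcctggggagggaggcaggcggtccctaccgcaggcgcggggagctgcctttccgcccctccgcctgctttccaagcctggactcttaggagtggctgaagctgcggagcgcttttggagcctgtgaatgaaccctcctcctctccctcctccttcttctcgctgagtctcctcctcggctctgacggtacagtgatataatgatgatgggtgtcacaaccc
Both strands of the 300 bases from 250 before to 50 after the start were searched for the STAT6 spacing (TTC and GAA with 4 bases between), TTCNNNGAA (the spacing of other STAT factors), TGANTCA and CAGAC (the SMAD box), which occur in 6.44%, 7.66%, 7.71% and 45.3% of the 35116 RefSeq promoters of that length. RefSeq windows were matched for 9 of the 10 genes, and the HAS2 window was not analysed here. CD44 and HAPLN1 held none of the 4 sets of letters. TNFAIP6 held TGANTCA at 129 bases and CAGAC at 110 bases before the start. VCAN held only the STAT6 spacing, 35 bases after the start and so outside the printed stretch. The IL-4+IL-13-responsive pair therefore shared none of these letters in this window, and a match or its absence is a description of the letters, not of binding.

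Per transcript length, HYAL2, CD44 and VCAN were the most abundant of the 10 genes in untreated cultures. The median Vehicle level, in reads per kilobase of the canonical GENCODE transcript, scaled by the library total (RPKM), was 19.9 for HYAL2, 17.98 for CD44 and 14.9 for VCAN. Their ranges over the 6 libraries overlapped, so the order of these 3 was not resolved. HAS3 was the synthase with the highest Vehicle level, at a median of 5.36 RPKM, and its lowest library (2.89) lay above the highest of HAS1 (1.55) and of HAS2 (1.90). HAPLN1 (4.34) and CEMIP (3.94) were near HAS3. TNFAIP6 (0.821) and HMMR (0.553) were at the bottom.

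Under IL-4+IL-13 the order changed at both ends of the list. CD44 became the highest, at a median of 55.9 RPKM, and TNFAIP6 moved from 0.821 to 6.67. Under TGF-β VCAN became the highest, at 27.4 RPKM, while CD44 stood at 15.4. These per-length levels describe 1 transcript per gene, and CD44, VCAN and TNFAIP6 have splice forms and overlapping genes (CD44-AS1 and SNORD164, VCAN-AS1, and LOC101929319) whose reads could not be separated here, since the strand setting of the counting is not given in the sources used here.

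**Figure D1:**
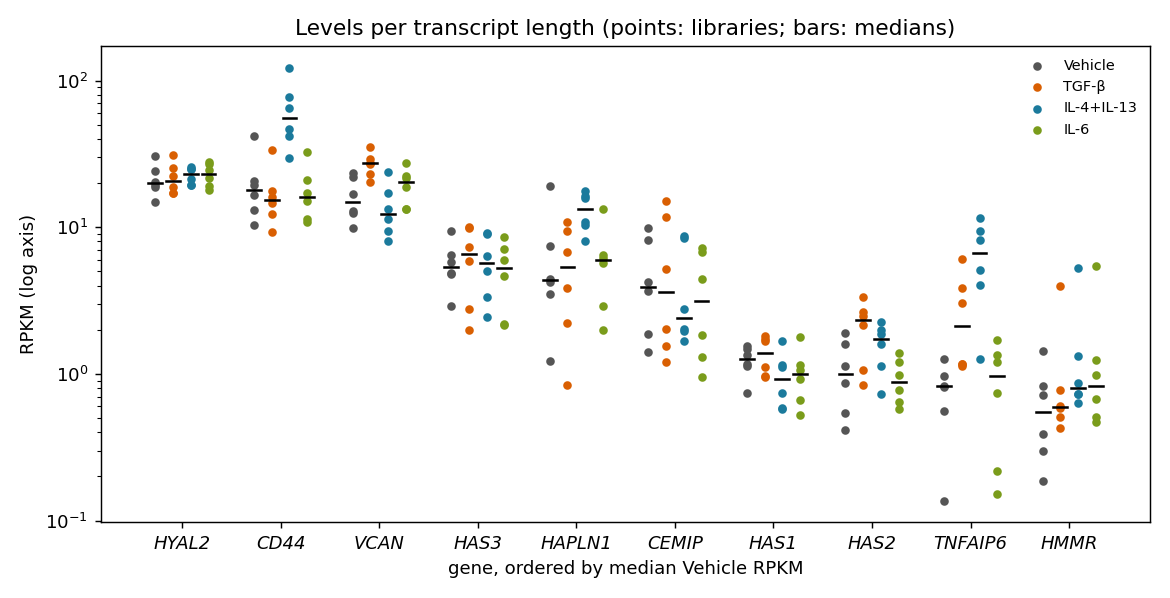
Level of each gene in RPKM (vertical, log axis) for the 10 genes ordered by median Vehicle level; each point is 1 of 24 libraries colored by group and each black bar is a group median of 6. CD44 is highest under IL-4+IL-13 (median 55.9 RPKM), VCAN under TGF-β (27.4) and TNFAIP6 under IL-4+IL-13 (6.67).

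CD44, the main cell surface receptor for hyaluronan, rose under IL-4+IL-13. It lies on chromosome 11 (35139171 to 35232402, GRCh38.p14). In the Vehicle libraries its level was 56.7 CPM at the lowest, 97.7 at the median and 227 at the highest, and in the IL-4+IL-13 libraries 162, 303 and 667 CPM. The groups overlapped only through batch 1, which was high in every group, since its Vehicle library (227) stood above the IL-4+IL-13 library of batch 2 (162). Within batches the difference ran from 1.10 to 2.23 on the log2 scale and was positive in 6 of 6.

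The fitted log2 fold change of CD44 was 1.69 (SE 0.154, 3.22-fold, adjusted p = 8.943e-06), rank 5 of all 29377 entries by p. In this comparison 109 entries (0.371%) were called, meaning that edgeR's quasi-likelihood test gave a log2 fold change past 1 in size with an adjusted p below 0.05, and 67 of them (0.228%) were higher. Of the 10 hyaluronan genes 2 were called, CD44 and TNFAIP6, both higher. The paper had already listed both among the top genes of a principal component that separated the treatments, so this count is not an independent result. Without the Vehicle libraries of batches 2 and 4 CD44 changed by 1.66 (adjusted p = 0.000349), and over batches 3 to 6 by 1.84 (adjusted p = 0.00062). Without the batch term the fold change was 1.66 and the adjusted p 0.206.

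The other groups held CD44 near its Vehicle level. The TGF-β libraries ran from 50.8 to 184 CPM with a median of 83.5, and the IL-6 libraries from 58.8 to 178 with a median of 87.5. These ranges overlapped one another and that of Vehicle, so the 3 groups below IL-4+IL-13 had no resolved order. The log2 fold change against Vehicle was -0.19 (SE 0.150) for TGF-β and -0.13 (SE 0.150) for IL-6. Set directly against IL-4+IL-13, CD44 was lower by 1.87 on the log2 scale under TGF-β (negative in 6 of 6 batches, adjusted p = 1.56e-06) and by 1.82 under IL-6 (6 of 6, adjusted p = 3.443e-06).

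Sums of cell type markers were set beside CD44 in the same libraries. Under IL-4+IL-13 the mesenchymal or fibroblast sum averaged 0.47 lower than Vehicle on the log2 scale and was higher in 1 of 6 batches, and the neuronal sum differed by 0.02 and was higher in 2 of 6. The sum of 8 markers of cycling cells averaged 1.04 higher, in 5 of 6 batches, with 0 of the 8 called and a median log2 fold change of 0.91. The white blood cell sum differed by -0.030 and was higher in 3 of 6. Across the 24 libraries CD44 correlated with the mesenchymal sum at 0.0048, and at -0.56 after removal of batch means. The same values were -0.49 and -0.06 for the neuronal sum, -0.05 and 0.21 for the cycling sum, and 0.45 and 0.15 for the white blood cell sum. Of the markers of smooth muscle, epithelium, endothelium, white blood cells and pluripotent cells, CDH1 was the one called in this comparison, lower under IL-4+IL-13 (-1.89, adjusted p = 0.00957). The part of other cell types in the CD44 result was not tested.

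HMMR, a second hyaluronan receptor that is also a spindle protein made by dividing cells, varied with the markers of cycling cells. Its Vehicle libraries ran from 0.564 to 4.33 CPM with a median of 1.67, and the medians were 2.41 under IL-4+IL-13, 1.79 under TGF-β and 2.51 under IL-6. In batch 2 it stood at 15.8 CPM under IL-4+IL-13, 12.0 under TGF-β and 16.4 under IL-6, above the other 5 libraries of each group, while the Vehicle library of batch 2 was at 2.48. No comparison called it, and its largest difference was 0.94 (SE 0.419, adjusted p = 0.513) for IL-4+IL-13 against Vehicle. The sum of 8 markers of cycling cells, MKI67 and TOP2A among them, ran from 25.2 to 180 CPM in Vehicle and up to 636 CPM in the other groups. HMMR correlated with that sum at 0.98 over the 24 libraries, also after removal of batch means, a value that rests in part on the 3 libraries of batch 2.

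**Figure D2:**
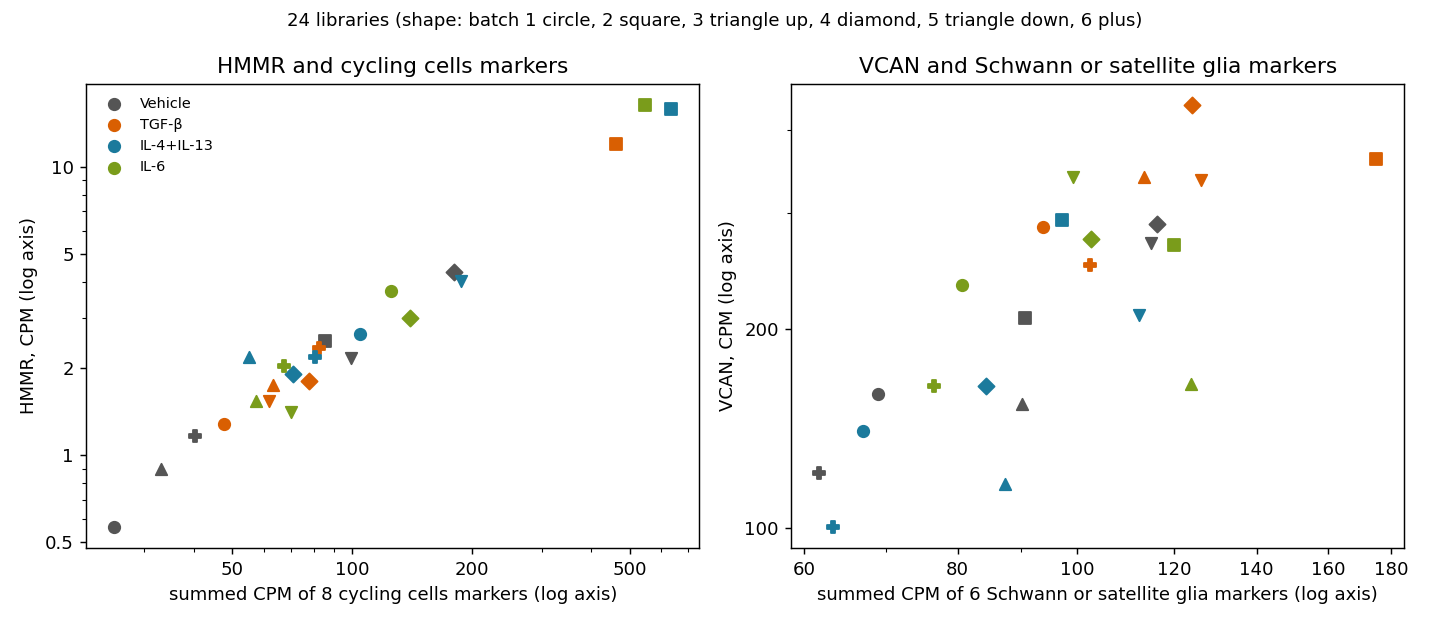
HMMR against the summed level of 8 cycling-cell markers (left) and VCAN against the summed level of 6 Schwann or satellite glia markers (right), all in CPM on log axes, for 24 libraries with color for the group and shape for the batch. HMMR and the cycling sum are highest in the 3 cytokine libraries of batch 2, and VCAN correlates with the glia sum at 0.77.

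Among the synthases, HAS2 was the one whose level was higher in every batch under TGF-β, but it was not called. HAS2, the main synthase of long hyaluronan in embryonic mesenchyme, lies on chromosome 8 (121612116 to 121641440). Its Vehicle libraries held 1.75 CPM at the lowest, 4.23 at the median and 8.07 at the highest, and its TGF-β libraries 3.57, 9.83 and 14.1. The groups overlapped, and the batches spread within each group widely. The log2 fold change was 0.95 (SE 0.278, adjusted p = 0.229, higher in 6 of 6 batches). Here the Vehicle library of batch 2 mattered, since it held the highest Vehicle value (8.07). Without it the fold change was 1.26 with an adjusted p of 0.0329, over batches 3 to 6 it was 1.22 with 0.0109, and without the Vehicle libraries of batches 2 and 4 it was 1.23 with 0.0887.

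Under IL-4+IL-13 HAS2 had a median of 7.36 CPM, between Vehicle and TGF-β, and under IL-6 a median of 3.72 CPM. The log2 fold change against Vehicle was 0.69 for IL-4+IL-13 (SE 0.283, adjusted p = 0.457, higher in 5 of 6 batches, lower in batch 2). With 1 batch left out at a time it ran from 0.49 to 1.08, and the highest value was that without batch 2 (adjusted p = 0.0122). For IL-6 against Vehicle the value was -0.15 (SE 0.281). TGF-β against IL-6 gave 1.10 (SE 0.279, adjusted p = 0.155, higher in 6 of 6), a difference that DESeq2 called (adjusted p = 0.0116, with 0.756% of all entries). The reads of HAS2 and its antisense partner HAS2-AS1, which overlaps it, could not be told apart, and HAS2-AS1 was not analysed here.

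HAS1 was low and varied little. Its libraries lay between 1.11 and 3.84 CPM over all groups, with medians of 2.66 in Vehicle, 1.95 under IL-4+IL-13, 2.94 under TGF-β and 2.09 under IL-6. It was lower than Vehicle in 5 of 6 batches under IL-4+IL-13 (-0.42, SE 0.150, adjusted p = 0.361) and under IL-6 (-0.35, SE 0.150, adjusted p = 0.850). TGF-β stood above IL-4+IL-13 in 6 of 6 batches by 0.54 (SE 0.150, adjusted p = 0.0565), and DESeq2 gave that difference an adjusted p of 0.0125. The groups overlapped in every comparison, and none of these differences was called.

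HAS3, the most abundant synthase per length, varied more with the batch than with the treatment. Its libraries ran from 8.34 to 42.2 CPM, and the group medians lay between 22.2 and 27.6. No fold change against Vehicle exceeded 0.32 in size, with an SE of 0.225. The batch 2 difference stood apart with -1.36 for IL-4+IL-13, -1.19 for TGF-β and -1.52 for IL-6, because the Vehicle library of batch 2 held 27.3 CPM and the other 3 libraries of that batch 9.16 to 11.6.

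VCAN, the large proteoglycan that cross-links hyaluronan, was higher under TGF-β in every batch. It lies on chromosome 5 (83471744 to 83582302), with HAPLN1 next to it. Its Vehicle libraries held 121 CPM at the lowest, 184 at the median and 289 at the highest, and its TGF-β libraries 250, 338 and 437. Only batches 4 and 5 of Vehicle (289 and 270) reached into the TGF-β range, where batch 6 was lowest. The log2 fold change was 0.80 (SE 0.140, 1.74-fold, adjusted p = 0.0163, rank 31), with differences within batches from 0.32 to 1.14, positive in 6 of 6.

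By the adjusted p alone VCAN thus passed in TGF-β against Vehicle, with 102 entries (0.347%), but it lay under the fold threshold that 42 entries (0.143%) passed, so 0 of the 10 genes were called there by both criteria. DESeq2 gave VCAN an adjusted p of 2.22e-05. Without the Vehicle libraries of batches 2 and 4 the fold change was 0.83 (adjusted p = 0.0425), and over batches 3 to 6 it was 0.79 (adjusted p = 0.0231). With 1 batch left out at a time it stayed between 0.73 and 0.90, and the adjusted p passed 0.05 without batch 1 (0.0625), 3 (0.139), 5 (0.0826) or 6 (0.097). Fits to fewer groups also lost it, with an adjusted p of 0.0913 without the IL-6 libraries.

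A rise of VCAN under IL-4+IL-13 was not detected. Its libraries held 100.3, 152 and 292 CPM, a median below Vehicle, and the log2 fold change was -0.24 (SE 0.140, adjusted p = 0.639, lower in 5 of 6 batches). Set against IL-4+IL-13, VCAN was higher under TGF-β by 1.04 (SE 0.141, 2.06-fold, adjusted p = 0.00021, 6 of 6 batches). Of the 10 genes 2 were called in that comparison, CD44 lower and VCAN higher under TGF-β, where 347 entries (1.18%) were called. The VCAN value lay close to the fold threshold and fell under it, at 0.94, 0.97 and 0.98, without batch 3, 4 or 6.

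Under IL-6 VCAN held 164, 251 and 341 CPM, between Vehicle and TGF-β, and the order of the 4 medians was TGF-β, IL-6, Vehicle and IL-4+IL-13. The neighbors in this order overlapped. IL-6 differed from Vehicle by 0.28 (SE 0.140, adjusted p = 0.850, higher in 5 of 6) and from TGF-β by 0.51 in the other direction (SE 0.140, adjusted p = 0.200, 5 of 6).

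Markers of Schwann or satellite glia moved with VCAN. Their summed level was 61.7 to 116 CPM in Vehicle and 93.8 to 175 CPM under TGF-β, higher in 6 of 6 batches by a mean of 0.44 on the log2 scale, and under IL-4+IL-13 it was 63.3 to 112 CPM. The defining glial gene SOX10 was low, at 3 to 27 counts per library. The mesenchymal sum was 0.16 higher under TGF-β, in 5 of 6 batches. The median log2 fold change of its 8 markers was -0.14, in the other direction, and 0 were called. COL1A1 differed by 0.38 and COL1A2 by -0.07. The part of these cell types in the VCAN result was not tested.

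TNFAIP6, which encodes the secreted protein TSG-6, rose under IL-4+IL-13 from a low level. It lies on chromosome 2 (151357592 to 151381340). In Vehicle it held 0.194 CPM at the lowest, 1.17 at the median and 1.81 at the highest (8 to 67 counts), and under IL-4+IL-13 1.80, 9.48 and 16.5 CPM (67 to 550 counts). Batch 2 was the exception, with 1.81 CPM in Vehicle and 1.80 under IL-4+IL-13, and without it the groups would not overlap. The differences of the other 5 batches lay between 2.23 and 3.23 on the log2(CPM + 0.5) scale.

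The fitted log2 fold change of TNFAIP6 was 2.94 (SE 0.472, 7.70-fold, adjusted p = 0.00361, higher in 5 of 6 batches). It was 3.43 (adjusted p = 9.579e-05) without the Vehicle libraries of batches 2 and 4 and 3.92 (adjusted p = 1.223e-05) over batches 3 to 6. The call was lost without batch 3 (2.80, adjusted p = 0.0571) and in a fit to the 12 libraries compared (3.10, adjusted p = 0.153).

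Under TGF-β TNFAIP6 held 1.62, 3.00 and 8.71 CPM, between Vehicle and IL-4+IL-13. The log2 fold change against Vehicle was 1.58 (SE 0.457, adjusted p = 0.220), higher in 5 of 6 batches and -0.09 in batch 2, and DESeq2 called it (adjusted p = 0.0233, with 0.793% of all entries). It turned on 1 library: without the Vehicle library of batch 2 it was 2.24 (adjusted p = 0.00602), and over batches 3 to 6 it was 2.54 (adjusted p = 0.00119). Against IL-4+IL-13 it was lower by 1.37 on the log2 scale, in 6 of 6 batches (SE 0.423, adjusted p = 0.106).

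Under IL-6 TNFAIP6 stayed at 0.215, 1.38 and 2.41 CPM. Its difference from Vehicle was -0.08 (SE 0.467), with 4 of 6 batches higher. Against IL-4+IL-13 it was lower by 3.03 (SE 0.456, adjusted p = 0.00197, 6 of 6 batches). With CD44 it was 1 of 2 genes of the 10 called in that comparison, where 82 entries (0.279%) were called and 59 (0.201%) were lower. TGF-β against IL-6 gave 1.66 (SE 0.444, adjusted p = 0.195, 6 of 6 batches), a comparison that called 9 entries (0.0306%) and 0 of the 10 genes.

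HAPLN1, the link protein that locks proteoglycans to hyaluronan, had the widest spread of the 10 genes between the Vehicle libraries (SD 1.27 on the log2 scale, n = 6). In Vehicle it held 5.92 CPM at the lowest, 21.04 at the median and 93.3 at the highest, and under IL-4+IL-13 39.1, 64.5 and 86.4. The IL-4+IL-13 libraries were close together while Vehicle spread widely, and the highest Vehicle value was that of batch 2. The log2 fold change was 1.47 (SE 0.542, adjusted p = 0.388, higher in 5 of 6 batches) and was not called. Without batch 2 it was 2.06 (adjusted p = 0.118), and without batch 1, where the difference was 3.58, it was 0.89.

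TGF-β and IL-6 left HAPLN1 with medians of 25.9 and 28.8 CPM. The fold change against Vehicle was -0.18 (SE 0.523) for TGF-β, which turned to 0.37 without the Vehicle library of batch 2, and -0.02 (SE 0.519) for IL-6. IL-4+IL-13 stood above TGF-β in 6 of 6 batches (log2 fold change of TGF-β against it -1.65, SE 0.537, adjusted p = 0.141) and above IL-6 in 6 of 6 (-1.49, SE 0.525, adjusted p = 0.632). DESeq2 called the first of these (adjusted p = 0.0216, with 2.12% of all entries).

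Neither gene of breakdown was called in a comparison. HYAL2, a surface-anchored hyaluronidase, ran from 27.9 to 58.9 CPM over all libraries, with group medians of 37.4 to 43.5. Its fold changes against Vehicle were 0.10 for IL-4+IL-13, 0.04 for TGF-β and 0.12 for IL-6, each with an SE of 0.0793 and none past the test (adjusted p = 0.738, 0.975 and 0.850). CEMIP, which binds hyaluronan and starts its uptake and cleavage, ranged from 7.03 to 112 CPM and in the 3 cytokine groups was highest in batches 3 and 4. Its fold changes against Vehicle were -0.39 for IL-4+IL-13, -0.09 for TGF-β and -0.56 for IL-6, with SEs of 0.393, 0.397 and 0.399, and none was called. The first 2 turned positive without the Vehicle library of batch 2, which held 60.4 CPM against 7.03 to 14.9 in the rest of that batch.

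**Figure D3:**
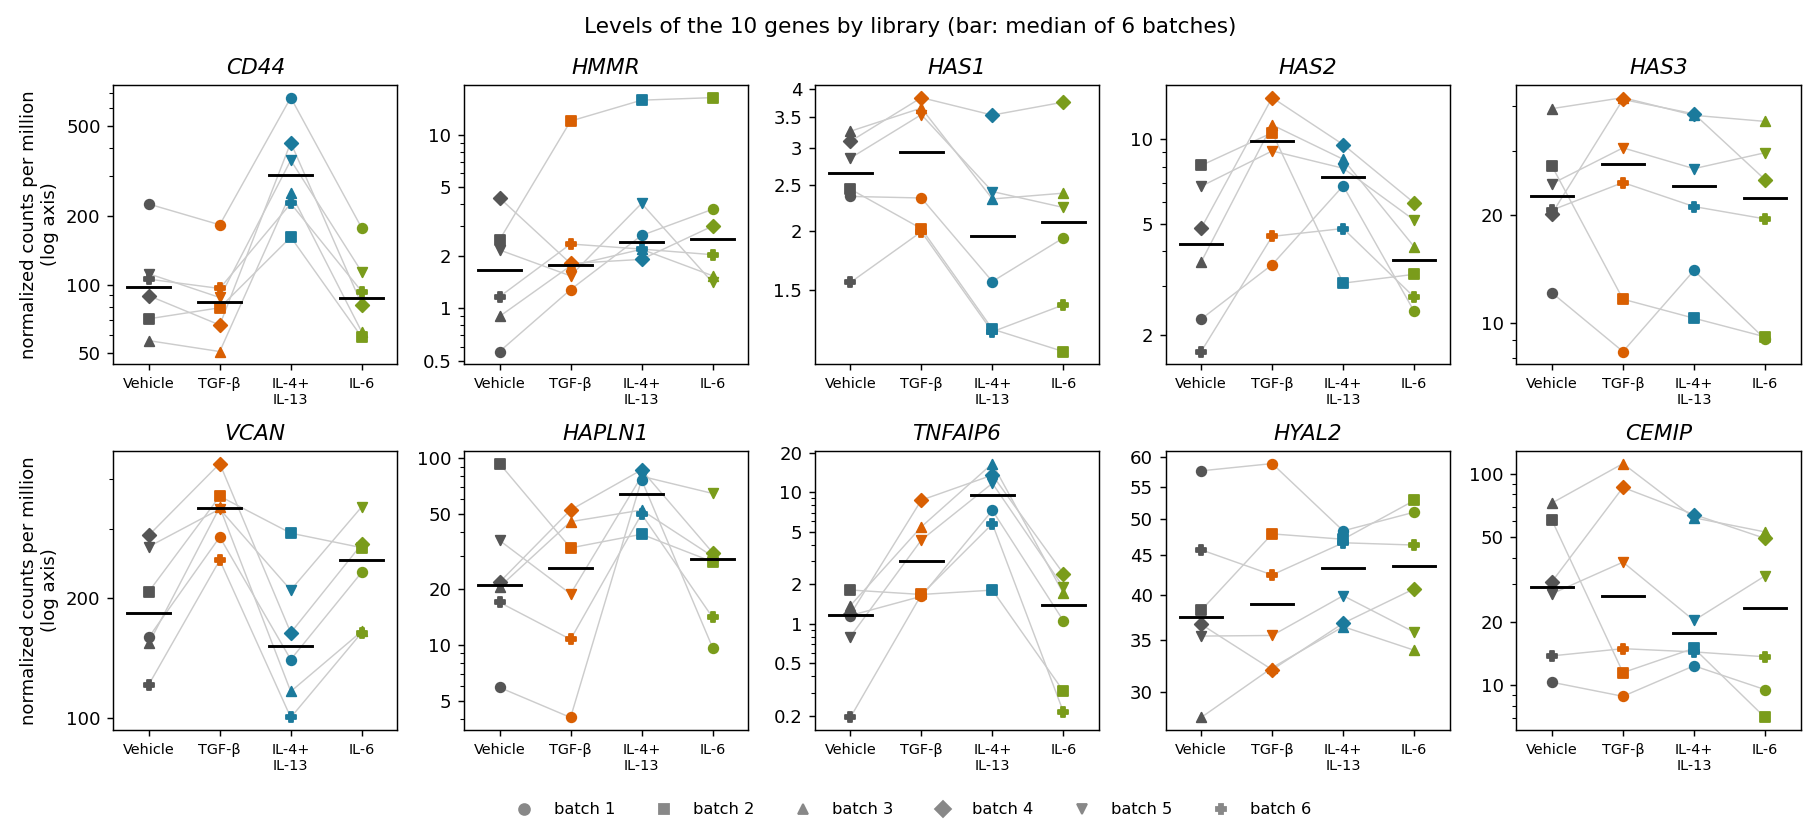
Level of each of the 10 genes in CPM (vertical, log axis) in the 24 libraries by group; shapes mark batches, gray lines join the libraries of 1 batch and black bars are medians of 6. CD44 and TNFAIP6 are highest under IL-4+IL-13 and VCAN under TGF-β (medians 303, 9.48 and 338 CPM), while HAS3, HYAL2 and CEMIP keep the order of the batches more than that of the groups.

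Read together, the 10 genes had a median log2 fold change from Vehicle of 0.40 under IL-4+IL-13, 0.09 under TGF-β and -0.11 under IL-6, where the medians of all entries were -0.01 in each. At an unadjusted p under 0.05 the counts were 6 of 10 under IL-4+IL-13 (9.1% of all entries), 3 of 10 under TGF-β (7.29%) and 1 of 10 under IL-6 (4.77%). The 6 under IL-4+IL-13 were CD44, HMMR, HAS2, HAPLN1 and TNFAIP6 on the higher side and HAS1 on the lower. The 3 under TGF-β, VCAN, HAS2 and TNFAIP6, were all higher. Because the 10 genes were chosen with earlier results of these data known, these counts describe the set and do not test it. In IL-6 against Vehicle edgeR called 0 entries (0%), with 1400 at an unadjusted p under 0.05, and DESeq2 called 122 (0.415%), none of them among the 10 genes. No gene of the 10 had libraries clear of Vehicle in any cytokine group. Over all entries, 0.194% were clear of Vehicle on the higher side and 0.0919% on the lower side under IL-4+IL-13, 0.0511% and 0.0204% under TGF-β, and 0.0238% and 0.017% under IL-6.

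**Figure D4:**
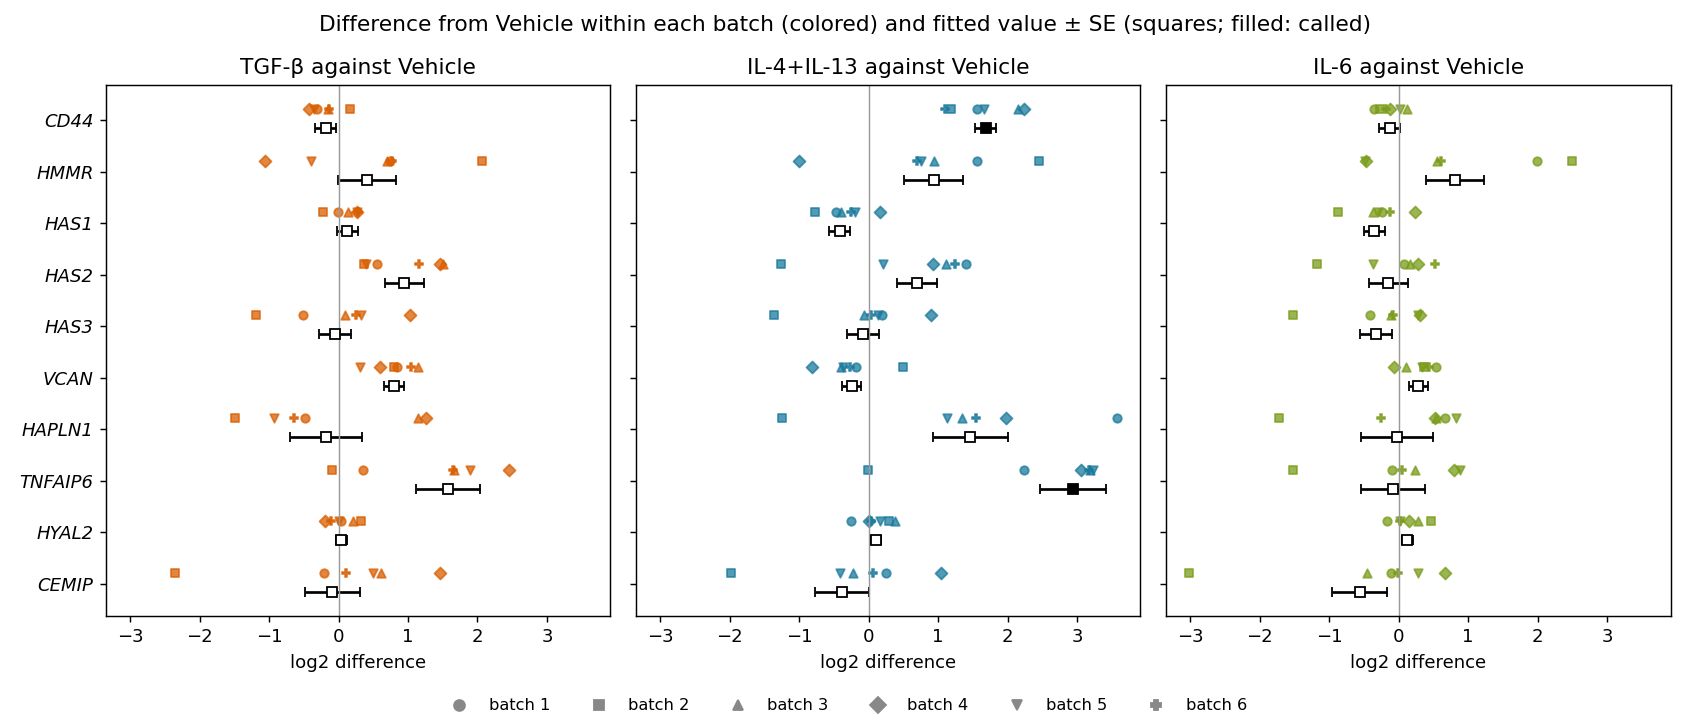
Log2 difference from Vehicle (horizontal) of each gene in each batch (colored shapes) and the fitted log2 fold change with its SE (squares with bars, filled where called) in 1 panel for each cytokine group. Only CD44 (1.69) and TNFAIP6 (2.94) under IL-4+IL-13 are filled. Batch 2 (square shape) is the lowest batch in every panel for HAS1, HAS2, HAS3, HAPLN1, TNFAIP6 and CEMIP.

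Some of the 10 genes varied together within batches, as described by Pearson r of log2(CPM + 0.5) after removal of batch means over the same 24 libraries, which share their depth and their treatments. CD44 and TNFAIP6 correlated at 0.73, HAPLN1 with TNFAIP6 at 0.67 and with CD44 at 0.66, and HAS2 with TNFAIP6 at 0.73. CD44 and VCAN ran opposite to each other (-0.69). HAS3 and CEMIP correlated at 0.89, and HYAL2 ran against both (-0.67 and -0.70). The last 3 were also seen without removal of batch means (0.90, -0.90 and -0.90). HAS3 and CEMIP followed the neuronal marker sum, at 0.75 and 0.79 without removal of batch means and at 0.59 and 0.55 after it. HYAL2 went against that sum (-0.84 without removal and -0.67 after it).

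The genes most like CD44 by the same measure, among 20962 entries with a mean count of at least 10, were SERPINB11 (r 0.971), MME (0.968), CCL26 (0.967), ALOX15 (0.963) and SMR3B (0.961). Their log2 fold changes under IL-4+IL-13 were 5.52, 4.33, 7.86, 10.58 and 5.23, all larger than the 1.69 of CD44. Leaving out 1 batch at a time kept 3 to 5 of these 5 names. Among the 5 genes most like TNFAIP6 were AZIN2 (0.902), PMCH (0.900), POSTN (0.887) and COL6A1 (0.884), and among the 5 most like VCAN were HMGA2 (0.883), MN1 (0.869), WWTR1 (0.860) and CLEC18B (0.850). These 2 sets of 5 were less stable, with 2 to 4 of 5 and 3 to 4 of 5 kept. For TNFAIP6, the IL-4+IL-13 fold change was 1.51 for POSTN, which encodes the matrix protein periostin, and 1.31 for COL6A1, a collagen VI chain. For VCAN, HMGA2 had -0.92 under IL-4+IL-13 and 1.01 under TGF-β.

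The wider hyaluronan pathway stayed mostly below the thresholds. A list of 51 further genes held receptors, proteoglycans and link proteins, heavy chains and TSG-6 partners, breakdown enzymes, enzymes of the sugar precursors, CD44 partners and sheddases, and versican-cleaving ADAMTS proteases, and 49 of them could be tested. In TGF-β against Vehicle 0 were called higher and 1 lower, where 0.102% of all entries were called lower. In the other 5 comparisons 0 were called. The median log2 fold change of the 49 from Vehicle was -0.07 under IL-4+IL-13, -0.03 under TGF-β and -0.05 under IL-6, beside -0.01 for all entries. At an unadjusted p under 0.05 in edgeR's test, 13 of the 49 passed under TGF-β, where 7.29% of all entries did. The counts were 9 under IL-4+IL-13 (9.1% of all entries) and 5 under IL-6 (4.77%). This list too was chosen with earlier results of these data known.

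The called gene was ITIH2, which encodes a heavy chain of inter-α-inhibitor, the partner that TSG-6 loads onto hyaluronan. Its mean was 3.28 CPM in Vehicle and 0.501 CPM under TGF-β, and its log2 fold change was -2.47 (SE 0.528, adjusted p = 0.0491, lower in 6 of 6 batches). It lay at the threshold and was not called over batches 3 to 6 or without the Vehicle libraries of batches 2 and 4. Under IL-4+IL-13 ITIH2 was also lower, in 5 of 6 batches (-1.64, SE 0.515, adjusted p = 0.247).

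By adjusted p alone, 3 pathway genes stood higher with TGF-β when IL-4+IL-13 was the reference, where 2.98% of all entries passed it, and they were picked out after their values were seen. GFPT2, an enzyme of the hexosamine route that makes a hyaluronan precursor, differed by 0.91 (SE 0.121, adjusted p = 0.000162), and its groups did not overlap (0.187% of all entries on the higher side). ADAMTS4, a protease that cuts versican and aggrecan, differed by 0.62 (SE 0.136, adjusted p = 0.0122), and MMP14, a membrane protease that can shed CD44, by 0.52 (SE 0.139, adjusted p = 0.0493). Each was higher in 6 of 6 batches. Against Vehicle, GFPT2 was 0.55 higher under TGF-β in 6 of 6 batches (SE 0.119, adjusted p = 0.053) and 0.36 lower under IL-4+IL-13 in 6 of 6 (log2 fold change -0.36, adjusted p = 0.294). TLR4, a receptor reported to sense hyaluronan fragments, was lower than Vehicle in 6 of 6 IL-4+IL-13 libraries. Its log2 fold change was -1.28 (SE 0.343, adjusted p = 0.130) and edgeR did not call it, while DESeq2 called it with 1% of all entries. Its groups did not overlap, as for 0.0919% of all entries on the lower side.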

How the data were processed

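The authors trimmed reads with Trimmomatic 0.30, aligned them to GRCh38.p14 and deposited 1 table of raw counts per gene for 24 libraries. The aligner, the counter and its strand setting are not given in the sources used here. The table held 36468 entries, 13161 of them unnamed loci, and library totals of 33342682 to 39817784. No other columns were present. Counting error is small at this depth for most of the genes, and TNFAIP6 had the lowest count in a single library, at 8. By the SE of the fold change against Vehicle HAPLN1 was the least precise of the 10 genes, at 0.519 to 0.542.

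The 6 comparisons came from 1 fit over the 24 libraries in edgeR 4.0.16 (R 4.3.3, TMM factors, robust quasi-likelihood test) with batch and treatment as terms, on the 29377 entries with a total count of at least 10, with Benjamini-Hochberg adjustment over all of them. Calls needed a log2 fold change past 1 in size and an adjusted p below 0.05. The SE is the fold change divided by the root of F. The batch label pairs 1 library of each group and was the replicate block, as in the model of the study, which used DESeq2. DESeq2 1.42.0 was run as an alternative. Median correlations of deviations from the group means were 0.685 within and -0.157 between batches. The negative sign of the second follows from the centering on group means. The labels call these samples separate batches of 1 cell line. With batch as a term, differences between batch means are taken out. The p-values therefore weigh each treatment difference against the variation left after the batch and treatment terms. That variation was estimated over all 24 libraries of the fit, not only over the groups compared.

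Levels are TMM-scaled CPM. Their log2 has a pseudocount of 0.5. RPKM used GENCODE canonical transcript lengths. Named genes were the 10 genes, pathway genes called in any comparison, and the 5 entries with the highest Pearson r to CD44, TNFAIP6 or VCAN after removal of batch means. Some genes of these lists are not reported here. The genes and lists were chosen with earlier results of these data known. Promoter sequences and positions are from RefSeq (GRCh38.p14). On simulated counts for TGF-β against Vehicle over 28729 genes, 97 of 100 genes changed by 1.5 on the log2 scale and 99 of 100 changed by 3 were called, with 3 false calls. The changed genes were drawn from entries with higher mean counts, around batch means shared by all groups. Libraries that stand apart from their batch were not simulated, so these shares need not hold for the 10 genes.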

Additional observations from a re-analysis of the deposited data

Results flagged for a closer look

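In 3 of the 40 sets of 6 libraries (10 genes in 4 groups), 1 library stood far from the others by Dixon's test at the 95% level on the log2(CPM + 0.5) scale, which chance gives in about 1 set in 20. All 3 were HMMR in batch 2. Under TGF-β that library held 12.0 CPM and the other 5 held 1.28 to 2.35, a gap of 0.759 of the range on that log2 scale. Under IL-4+IL-13 it held 15.8 CPM beside 1.92 to 4.03 (0.672), and under IL-6 16.4 CPM beside 1.41 to 3.72 (0.636). The same 3 libraries had the highest summed level of the cycling-cell markers in their groups, at 462, 636 and 545 CPM. On the plain CPM scale 6 sets passed, the same 3 of HMMR with CD44 in batch 1 of Vehicle (227 CPM, a gap of 0.676 of the range) and of TGF-β (184 CPM, 0.658), and HAPLN1 in batch 2 of Vehicle (93.3 CPM, 0.653).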

How the results depend on the processing

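Over the 6 comparisons and 10 genes, 1075 of the alternative fold changes kept their direction and their side of the call, 57 changed sign, 28 gained a call and 10 lost one. The cause was not tested for any of them.

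With no replicate block (batch), the entries called fell from 42 to 0 for TGF-β against Vehicle, from 109 to 13 for IL-4+IL-13 against Vehicle, from 347 to 49 for TGF-β against IL-4+IL-13, from 82 to 13 for IL-6 against IL-4+IL-13 and from 9 to 0 for TGF-β against IL-6. Of the 10 genes 0, 0, 1, 0 and 0 were then called in the same order, and of the pathway genes 0 for TGF-β against Vehicle. CD44 (1.66, adjusted p = 0.206) and TNFAIP6 (3.11, adjusted p = 0.0842) lost their calls against Vehicle.

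DESeq2 called more entries, 294 for IL-4+IL-13, 233 for TGF-β and 122 for IL-6 against Vehicle, 624 for TGF-β and 230 for IL-6 against IL-4+IL-13, and 222 for TGF-β against IL-6. Of the 10 genes it called 1 (TNFAIP6) for TGF-β against Vehicle, 4 for TGF-β against IL-4+IL-13 and 2 for TGF-β against IL-6, and of the pathway genes 1 for IL-4+IL-13 against Vehicle. With no minimum fold change the entries were 102, 186, 874, 134 and 23 (no change for IL-6 against Vehicle, at 0), the 10 genes 1 (VCAN) for TGF-β against Vehicle and the pathway genes 3 for TGF-β against IL-4+IL-13. Without the IL-6 libraries the entries were 6 for TGF-β and 72 for IL-4+IL-13 against Vehicle. In fits to only the 12 libraries compared they were 0 and 25, and 29 for TGF-β against IL-6, with 1 of the 10 genes for IL-4+IL-13 against Vehicle and 2 for TGF-β against IL-6. For TGF-β against IL-6 library totals gave 22 and filterByExpr 17, and the share of higher calls was 88.9% with TMM, 54.5% with library totals and 46.4% with DESeq2. It was 28% with edgeR and 38.3% with DESeq2 for IL-6 against IL-4+IL-13. The pathway call for TGF-β against Vehicle (ITIH2) went to 0 with DESeq2's size factors, with no filter, without the IL-6 libraries and with only 12 libraries.

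Without the Vehicle library of batch 2, TGF-β against IL-6 called 37 entries, and 2 of the 10 genes were called there and for TGF-β against Vehicle. Without the Vehicle libraries of batches 2 and 4 the entries were 26 for TGF-β against Vehicle and 46 for TGF-β against IL-6, with 1 and 2 of the 10 genes and 0 pathway genes for TGF-β and 1 for IL-4+IL-13 against Vehicle. Over batches 3 to 6 they were 102 and 70, with 2 and 2 of the 10 genes, 0 pathway genes for TGF-β against Vehicle and 1 for TGF-β against IL-4+IL-13. Leaving out 1 batch at a time gave 1 to 40 entries for TGF-β against Vehicle, 60 to 122 for IL-4+IL-13 against Vehicle, 196 to 444 for TGF-β against IL-4+IL-13, 52 to 109 for IL-6 against IL-4+IL-13 and 0 to 22 for TGF-β against IL-6. Of the 10 genes the calls were 0 to 2 for TGF-β against Vehicle, 1 to 3 for IL-4+IL-13 against Vehicle, 1 to 3 for TGF-β against IL-4+IL-13 and 0 to 1 for TGF-β against IL-6, and 2 in every case for IL-6 against IL-4+IL-13. Of the pathway genes they were 0 to 1 for TGF-β against Vehicle and 0 to 1 for TGF-β against IL-4+IL-13.

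No sign change touched a called value. Without the Vehicle library of batch 2, TGF-β against Vehicle gave HAS3 0.26, HAPLN1 0.37, HYAL2 -0.015 and CEMIP 0.48, IL-4+IL-13 against Vehicle gave HAS3 0.23 and CEMIP 0.24 and IL-6 against Vehicle gave HAS2 0.13, HAPLN1 0.49 and TNFAIP6 0.53. Over batches 3 to 6, TGF-β against Vehicle gave HMMR -0.023, HAS3 0.43, HAPLN1 0.36, HYAL2 -0.019 and CEMIP 0.67, IL-4+IL-13 against Vehicle gave HAS3 0.26 and CEMIP 0.12, IL-6 against Vehicle gave HAS2 0.15, HAS3 0.094, HAPLN1 0.45, TNFAIP6 0.78 and CEMIP 0.11 and IL-6 against IL-4+IL-13 gave HYAL2 -0.030. Without the Vehicle libraries of batches 2 and 4, TGF-β against Vehicle gave HAS3 0.13, HAPLN1 0.29 and CEMIP 0.31, IL-4+IL-13 against Vehicle gave HAS3 0.091 and CEMIP 0.062 and IL-6 against Vehicle gave HAS2 0.089, HAPLN1 0.40 and TNFAIP6 0.42. With only the 12 libraries compared, TGF-β against Vehicle gave HAS3 0.0059 and CEMIP 0.082 and IL-6 against Vehicle gave HAPLN1 0.13 and TNFAIP6 0.10. With no replicate block, TGF-β against Vehicle gave HAS3 0.15 and CEMIP 0.34, IL-4+IL-13 against Vehicle gave HAS3 0.041 and IL-6 against Vehicle gave TNFAIP6 0.22. Without the IL-6 libraries, TGF-β against Vehicle gave CEMIP 0.0096. With 1 batch left out, TGF-β against Vehicle ran over -0.25 to 0.24 for HAS3, -0.51 to 0.25 for HAPLN1, -0.017 to 0.092 for HYAL2 and -0.37 to 0.51 for CEMIP. IL-4+IL-13 against Vehicle ran over -0.25 to 0.24 for HAS3 and -0.62 to 0.14 for CEMIP. IL-6 against Vehicle ran over -0.30 to 0.13 for HAS2, -0.26 to 0.47 for HAPLN1, -0.36 to 0.54 for TNFAIP6 and -0.76 to 0.059 for CEMIP. TGF-β against IL-4+IL-13 ran over -0.023 to 0.17 for HAS3. IL-6 against IL-4+IL-13 ran over -0.30 to 0.12 for HMMR and -0.0098 to 0.058 for HYAL2. TGF-β against IL-6 ran over -0.17 to 0.016 for CD44 and -0.41 to 0.21 for HAPLN1.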
